A study of Homo sapiens with 6 samples.

Results

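The 4 human tropomyosin genes, TPM1, TPM2, TPM3 and TPM4, were followed in A549 cells, an established human lung adenocarcinoma line of epithelial origin. They were taken by gene symbol from a deposited table of 60612 Ensembl genes, of which 15937 had enough counts to be tested, all 4 tropomyosins among them. The family was chosen by measured values of this same comparison, in which TPM4 was already known to be among the most significant genes to rise. The differences of the 4 genes between the groups are therefore given as a description, without p-values, and where a gene is said to be past the threshold of the fit over all genes, this restates the comparison that led to the choice and supports nothing.

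The 6 libraries were made from 500 ng of total RNA each, taken 48 hours after transfection, 3 of them from cells transfected with siRNA targeting GSE1 (siGSE1) and 3 from cells that received negative control siRNA (control). The GSE1 protein is known as a partner of CoREST, a corepressor with histone demethylase and deacetylase activity. No source used here states the siRNA sequences, or whether the replicates of a group came from separate transfections. Every p-value below therefore reflects spread among the 6 libraries alone, and that spread may be technical. Because whole cultures were sequenced, fewer cells with a transcript and less of it per cell cannot be told apart.

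Library totals ran from 17521807 to 19914346 counts in siGSE1 cells and from 14475992 to 20755506 in control cells. The targeted gene had 3.84, 4.06 and 3.73 FPKM (the count scaled by exonic length and library total) in siGSE1 cells and 7.37, 8.06 and 7.92 in control cells, and its log2 fold change was -1.03 (SE 0.06) with an adjusted p of 2.14e-08 in edgeR's quasi-likelihood test. All 3 siGSE1 values lay below the control values, and the exact two-sided permutation p was 0.1, the smallest that 3 libraries against 3 can give. Control replicate 2 stood apart, with a chi-square per degree of freedom of 10.0 and 8.86 against the other control libraries, where that pair had 4.49. Of 6 epithelial markers 0 rose and 3 fell, where 10.9% of all genes tested rose and 9.02% fell, their summed level running from 1516 to 1547 FPKM in siGSE1 cells and from 1569 to 2055 in control cells, and EPCAM was under 1 FPKM in both groups. The 3 that fell were KRT8, KRT18 and CLDN4, while KRT19, CDH1 and EPCAM did not pass. In control replicates 1, 2 and 3 KRT8 had 734, 863 and 664 FPKM and KRT18 had 860, 1053 and 792. Both were thus highest in control replicate 2, whereas CLDN4 was lowest there among the control libraries. The part of this epithelial drop in the tropomyosin values was not tested.

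Tropomyosins are coiled-coil proteins that pair along their length and lie head to tail in the groove of the actin filament. They influence which other proteins reach that filament, among them myosin II, cofilin, the Arp2/3 complex and formins, and in striated muscle they carry the troponin switch. Non-muscle cells make many cytoskeletal forms from the 4 genes by alternative start sites and splicing. Long forms of TPM1 and TPM2 are known from stress fibres, the short form of TPM4 is known for bringing myosin II to them, and TPM3 supplies short forms found widely along actin filaments.

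The annotation shows how many forms each count pools, and positions are those of the deposited table. In GENCODE release 29, TPM1 (ENSG00000140416, chromosome 15, 63042632 to 63071915 of hg38, plus strand) has 17 complete coding transcripts, of which 8 encode 284 residues and 3 encode 248. TPM2 (ENSG00000198467, chromosome 9, 35681992 to 35690056, minus strand) has 6, all of 284 residues. TPM3 (ENSG00000143549, chromosome 1, 154155304 to 154194648, minus strand) has 11, of which 3 encode 248 residues and 2 encode 285. TPM4 (ENSG00000167460, chromosome 19, 16067021 to 16103002, plus strand) has 7, with 2 of 284 and 2 of 248 residues. The deposited counts are per gene, so long and short forms are not separated in any value below.

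RefSeq gives 8 start windows for the 4 genes, each reaching from 250 bases before to 50 bases after a start. Of these, 4 are shown, from the genes with the largest differences, TPM4 and TPM1, and from TPM3, whose groups overlapped. A further TPM4 window, a further TPM3 window and both TPM2 windows are not printed. All 4 windows shown lie inside the deposited gene bounds, that of the upstream TPM4 start included. Starts without a window were not analysed here. Capitals mark the CArG box, the element bound by serum response factor (SRF), and every copy of GGGCGG on either strand, a motif of SP and KLF family factors. The sequences run 5' to 3' along the gene, in build GRCh38.p14.
TPM4 upstream start, chr19:16067288-16067587, plus strand: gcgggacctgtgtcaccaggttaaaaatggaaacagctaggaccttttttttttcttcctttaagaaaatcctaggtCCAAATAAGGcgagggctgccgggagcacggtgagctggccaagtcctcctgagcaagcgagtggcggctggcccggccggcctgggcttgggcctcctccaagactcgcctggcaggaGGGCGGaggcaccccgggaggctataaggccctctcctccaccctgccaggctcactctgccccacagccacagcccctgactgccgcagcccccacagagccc
TPM4 middle start, chr19:16076245-16076544, plus strand: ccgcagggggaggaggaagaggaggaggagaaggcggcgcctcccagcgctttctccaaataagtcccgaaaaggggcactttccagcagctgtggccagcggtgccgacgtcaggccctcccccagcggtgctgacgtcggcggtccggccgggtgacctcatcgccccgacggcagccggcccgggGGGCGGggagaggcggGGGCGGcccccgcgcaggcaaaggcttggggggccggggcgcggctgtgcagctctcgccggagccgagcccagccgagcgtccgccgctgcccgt
TPM1 internal start, chr15:63048239-63048538, plus strand: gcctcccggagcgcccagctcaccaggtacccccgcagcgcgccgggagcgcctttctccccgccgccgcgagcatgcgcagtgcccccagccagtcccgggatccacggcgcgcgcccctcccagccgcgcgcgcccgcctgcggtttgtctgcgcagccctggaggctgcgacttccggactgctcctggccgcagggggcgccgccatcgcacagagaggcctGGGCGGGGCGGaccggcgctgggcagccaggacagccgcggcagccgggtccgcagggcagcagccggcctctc
TPM3 internal start, chr1:154183169-154183468, minus strand: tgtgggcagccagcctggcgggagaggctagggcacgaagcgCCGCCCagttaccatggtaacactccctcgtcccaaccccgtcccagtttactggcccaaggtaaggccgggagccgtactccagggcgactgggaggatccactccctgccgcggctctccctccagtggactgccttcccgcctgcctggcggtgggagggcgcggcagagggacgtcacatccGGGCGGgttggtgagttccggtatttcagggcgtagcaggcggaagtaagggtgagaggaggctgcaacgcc

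With both strands searched, a CArG box was present in 1 of the 8 windows, beginning 173 bases before the upstream TPM4 start as CCAAATAAGG. Of 35116 windows of this length over all RefSeq genes, 1.29% held such a box. GGGCGG was found in all 8 tropomyosin windows, against 45% of all windows, and the TPM1 window holds 2 overlapping copies. The share of G and C in the tropomyosin windows ran from 48.3% at the TPM3 start that is not printed to 78.3% at the TPM1 internal start. Neither GGAATG, the motif of TEAD factors, nor TGANTCA, the AP-1 motif, nor TATAAA occurred in any of the 8 windows on either strand, where 14%, 7.71% and 11.5% of all windows held them. These matches describe letters in a window and say nothing of binding, and the counts do not tell which start was used.

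**Figure D1:**
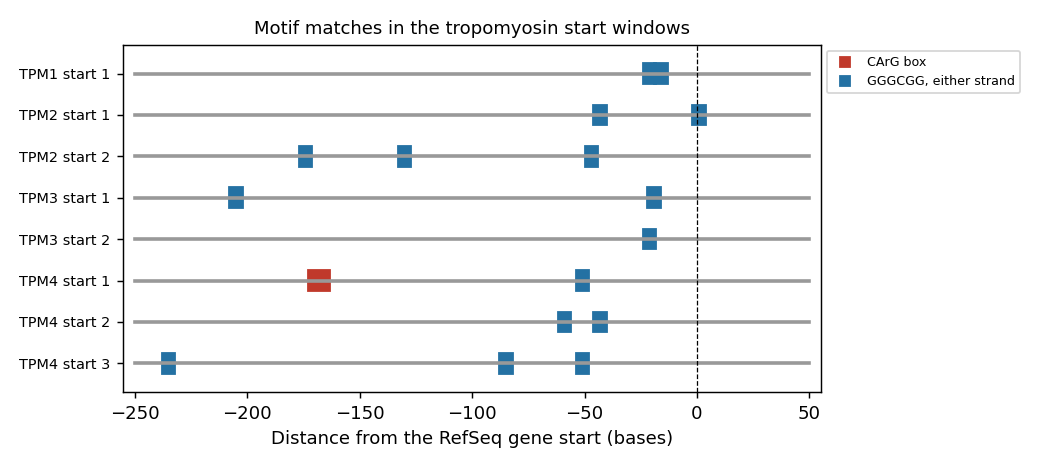
Motif matches in the 8 RefSeq start windows of the tropomyosin genes, drawn by distance from the start in bases, where 0 is the start. Red marks the CArG box, present at the upstream TPM4 start alone, and blue marks GGGCGG on either strand, present in all 8 windows.

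TPM4 showed the largest difference of the family. It had 42.35, 43.58 and 44.70 FPKM in siGSE1 cells and 16.61, 19.33 and 15.89 in control cells. The lowest siGSE1 library lay far above the highest control library, and the highest control value was that of control replicate 2. The means were 43.5 ± 1.18 FPKM in siGSE1 cells and 17.3 ± 1.81 in control cells (SD, n = 3 each). This was a 2.48-fold difference, or 1.31 on the log2 scale (SE 0.07). These values rest on 9182 to 11015 counts per siGSE1 library and 2847 to 4964 per control library. Its place among the risers is what led to the choice of the family. Of the genes tested, 0.42% had a larger log2 fold change.

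TPM1 came next. It had 37.66, 38.35 and 40.46 FPKM in siGSE1 cells and 25.22, 15.92 and 26.23 in control cells. The groups did not overlap, and control replicate 2 lay well below the other control libraries. The means were 38.8 ± 1.46 FPKM in siGSE1 cells and 22.5 ± 5.68 in control cells (SD, n = 3 each). The difference was 1.70-fold, or 0.77 on the log2 scale (SE 0.12). The SD was 3.76% of the mean in siGSE1 cells and 25.3% in control cells, the widest spread of any tropomyosin. Without control replicate 2 the log2 fold change of TPM1 was 0.57.

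TPM2, whose product is abundant in contractile cells, was higher by a small amount. It had 80.18, 81.16 and 79.07 FPKM in siGSE1 cells and 66.09, 71.51 and 63.61 in control cells. Again no control library reached the siGSE1 range, and control replicate 2 was the control library closest to it. The means were 80.1 ± 1.05 FPKM in siGSE1 cells and 67.1 ± 4.04 in control cells (SD, n = 3 each), 1.17-fold apart, which is 0.23 on the log2 scale (SE 0.05).

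TPM3 had nearly the same level in both groups. It had 21.78, 21.53 and 20.99 FPKM in siGSE1 cells and 22.72, 21.13 and 22.00 in control cells. The groups overlapped, since control replicate 2 lay below the higher siGSE1 libraries. The means were 21.4 ± 0.40 FPKM in siGSE1 cells and 22.0 ± 0.80 in control cells (SD, n = 3 each), and the log2 scale gave -0.06 (SE 0.05). Its log2 fold change was 0.0028 when each library was rescaled to a fixed sum of FPKM, so no direction is given for TPM3.

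In the fit over all genes, TPM1, TPM2 and TPM4 were past an adjusted p of 0.05 and higher, which held for 10.9% of the 15937 genes tested, and 0 were lower, against 9.02% of all. Calls in either direction made up 19.9% of all genes, and TPM3 was not called. The groups did not overlap for TPM1, TPM2 and TPM4, where 36.1% of all genes had groups that did not overlap, 21.2% with siGSE1 above control and 14.9% with it below. The median log2 fold change of the 4 was 0.50, where that of all genes tested was 0.0044. Since TPM4 led to the choice of the family, nothing is read from these counts.

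**Figure D2:**
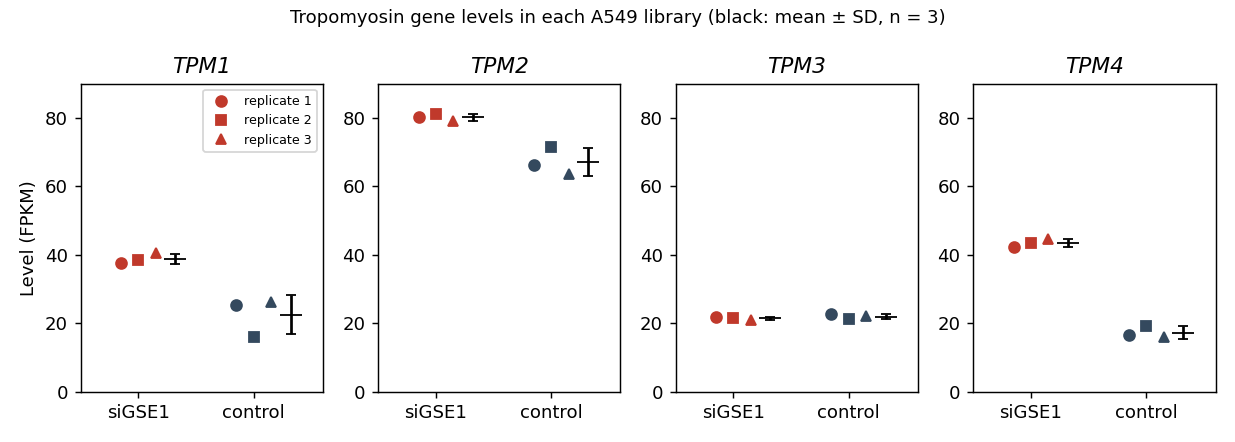
Level of each tropomyosin gene in FPKM in the 3 siGSE1 libraries (red) and the 3 control libraries (dark blue), with marker shapes for the replicate number and black bars for mean ± SD. The siGSE1 points lie above every control point for TPM1, TPM2 and TPM4, TPM3 is level, and the square of control replicate 2 lies far below the other control points for TPM1.

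Ratios between members within a library do not depend on how libraries are scaled to each other. TPM4 relative to TPM3 was 1.94, 2.02 and 2.13 in siGSE1 cells and 0.731, 0.915 and 0.722 in control cells. TPM1 relative to TPM3 was 1.73, 1.78 and 1.93 in siGSE1 cells and 1.11, 0.753 and 1.19 in control cells. Both ratios were higher in every siGSE1 library than in every control library. TPM4 relative to TPM1 was 1.12, 1.14 and 1.10 in siGSE1 cells and 0.659, 1.21 and 0.606 in control cells. Here the groups overlapped, as control replicate 2 had the highest ratio of the 6 libraries, with low TPM1 and raised TPM4 together.

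The summed level of the 4 genes was 182, 185 and 185 FPKM in siGSE1 cells and 131, 128 and 128 in control cells. By FPKM the sum was thus much the same in control replicate 2 as in the other control libraries, in spite of its low TPM1. By CPM the sum was 1006 in control replicate 2, below the 1108 and 1094 of control replicates 1 and 3. The likeness of the control sums therefore depended on the scale. The mean sum was 184 ± 1.73 FPKM in siGSE1 cells and 129 ± 1.64 in control cells (SD, n = 3 each), a ratio of 1.43. Of the difference of 55.2 FPKM, TPM4 made up 47.6%, TPM1 29.7% and TPM2 23.7%, while TPM3 was 0.52 FPKM lower in siGSE1 cells. This split depends on the lengths used. By CPM the mean sums differed by 584. Mean CPM in siGSE1 and control cells was 538.8 and 213.8 for TPM4, 534.4 and 309.1 for TPM1, and 255.1 and 213.5 for TPM2. The part of TPM2 was thus smaller by CPM than by FPKM.

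The make-up of the sum differed as well. TPM4 held 23.3%, 23.6% and 24.1% of it in siGSE1 cells and 12.7%, 15.1% and 12.4% in control cells. TPM2 remained the largest part by FPKM, with 43.6 ± 0.77% in siGSE1 cells and 52.1 ± 3.33% in control cells (SD, n = 3 each). TPM3 held 11.7 ± 0.32% in siGSE1 cells and 17.1 ± 0.46% in control cells. The TPM1 share ran from 20.7% to 21.8% in siGSE1 cells and from 12.4% to 20.5% in control cells. By FPKM the TPM1 and TPM4 shares of each siGSE1 library were above every control value, and the TPM2 and TPM3 shares were below. For TPM1 this depended on the scale, as its shares overlapped between the groups by CPM (31.9% to 33.2% in siGSE1 cells and 21.8% to 33.0% in control cells).

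**Figure D3:**
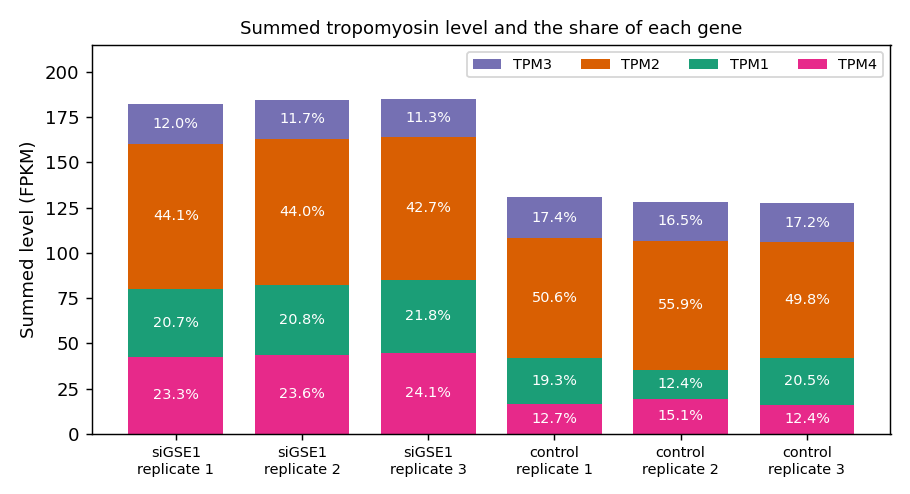
Summed level of the 4 tropomyosin genes in FPKM for each library, with siGSE1 libraries at the left and control libraries at the right. Segments are the genes and the printed percentages are their shares, TPM4 holding 23.3% to 24.1% in siGSE1 cells and 12.4% to 15.1% in control cells.

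The order of the levels depends on the length used. With the deposited exonic lengths, each longer than any single coding transcript of its gene, the order in siGSE1 cells was TPM2, TPM4, TPM1 and TPM3, and neighbouring genes did not overlap. In control cells TPM2 led, and the values of TPM1 overlapped those of both TPM3 and TPM4, while TPM3 was above TPM4 in each library. Those lengths are 13765 bases for TPM1, 3183 for TPM2, 15156 for TPM3 and 12375 for TPM4, whereas the longest coding transcripts of GENCODE have 3957, 1392, 3149 and 2666 bases. With CPM divided by the longest coding transcript in kilobases, TPM4 led in siGSE1 cells with 202 ± 5.46, ahead of TPM2 with 183 ± 2.40, TPM1 with 135 ± 5.06 and TPM3 with 103 ± 1.95 (SD, n = 3). On that scale TPM2 led in control cells with 153 ± 9.23, ahead of TPM3 with 106 ± 3.85, and TPM4 with 80.2 ± 8.40 overlapped TPM1 with 78.1 ± 19.8 (SD, n = 3). TPM2 thus had the highest tropomyosin level in control cells with both of these lengths, while the gene with the highest level in siGSE1 cells changed with the length. By CPM, which uses no length, TPM2 had the lowest mean in control cells, 213.5 ± 12.8, near TPM4 with 213.8 ± 22.4. On that scale TPM3 led with 332.7 ± 12.1, ahead of TPM1 with 309.1 ± 78.3 (SD, n = 3). The lead of TPM2 therefore rests on the lengths used.

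Pseudogene rows of the tropomyosins held few counts, which does not show how many reads matched several genes. No stretch of 50 bases, the read length in the series text, was shared between transcripts of different tropomyosin genes in GENCODE. With any other gene, 1.03% of the distinct stretches of TPM1, 0% of TPM2, 3.25% of TPM3 and 7.14% of TPM4 were shared. With tropomyosin pseudogenes, TPM3 shared 43 of its 8935 stretches, 39 of them with TPM3P8. Of the 8 TPM3 pseudogene rows, 4 had any count. TPM3P9 had 200, 226 and 208 counts in siGSE1 cells and 186, 159 and 186 in control cells, 3.15% of the TPM3 total over the 6 libraries. TPM3P8 had 6 counts over the 6 libraries, TPM3P7 had 2 and TPM3P6 had 2, and the single TPM4 pseudogene row, TPM4P1, had 0. With the pseudogene rows added, the log2 fold change of TPM3 was -0.05.

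A row without a tropomyosin name shared 203 stretches of 50 bases with TPM4 transcripts. This row, AF201337.1, had 95, 88 and 83 counts in siGSE1 cells and 18, 33 and 35 in control cells. Its groups lay apart in the same direction as those of TPM4, and its total came to 0.825% of the TPM4 total. How many of these reads came from TPM4 was not tested. A further annotated gene, AC098614.1, shared 501 such stretches with TPM4. It had no row under its GENCODE identifier in the deposited table, and so was not analysed here. Among rows that overlap a member, the antisense row TPM1-AS had 28, 29 and 29 counts in siGSE1 cells and 20, 19 and 25 in control cells, and AC008894.3 within TPM4 had 59, 74 and 61 against 44, 91 and 32. No source used here states whether counting used strand, so reads of an overlapping pair may not be separated, but these rows hold 0.317% of the TPM1 total and 0.846% of the TPM4 total.

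Other genes were then ranked by how closely their profile over the 6 libraries followed each tropomyosin. Log2 CPM values (counts scaled to a common library total) were centred on the mean of each gene, and the root mean square difference from the member was taken over 6604 protein-coding genes with a mean of at least 5 FPKM. This is a description of 6 libraries in 2 groups. The genes nearest to TPM4 were MESD at 0.059, TRIML2 at 0.11, GANAB at 0.13, CHST14 at 0.13 and BICD2 at 0.15. MESD is a chaperone of the endoplasmic reticulum for receptors of the LDL family, GANAB is a glucosidase subunit of glycoprotein folding there, CHST14 is a dermatan sulfotransferase of the Golgi and BICD2 is a dynein adaptor. MESD had 14.4 ± 0.72 FPKM in siGSE1 cells and 5.95 ± 0.70 in control cells (SD, n = 3 each), and like TPM4 it had no low value in control replicate 2. That all 5 were higher in siGSE1 cells follows from the choice by likeness to TPM4.

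The genes nearest to TPM1 were MT1X, a metallothionein, at 0.042, EPHB2, an ephrin receptor, at 0.046, and TGFBI, a matrix protein induced by TGF-beta, at 0.058. All 3 shared the dip of TPM1 in control replicate 2. There the centred log2 CPM was -0.86 for TPM1, -0.87 for MT1X, -0.83 for EPHB2 and -0.79 for TGFBI, while TPM4 had -0.49, above its values of -0.69 and -0.79 in control replicates 1 and 3. TPM1 in control replicate 2 was at 61.9% of the mean of the other control libraries, and 2.82% of the genes tested fell further below it there. TPM2 was at 110%, TPM3 at 94.5% and TPM4 at 119%. Nearest to TPM2 were ZBED4 at 0.021, the Arp2/3 activator CTTN at 0.023 and CRELD2 at 0.024, and nearest to TPM3 were ERAL1 at 0.015, MRPL51 at 0.016 and NBAS at 0.017.

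**Figure D4:**
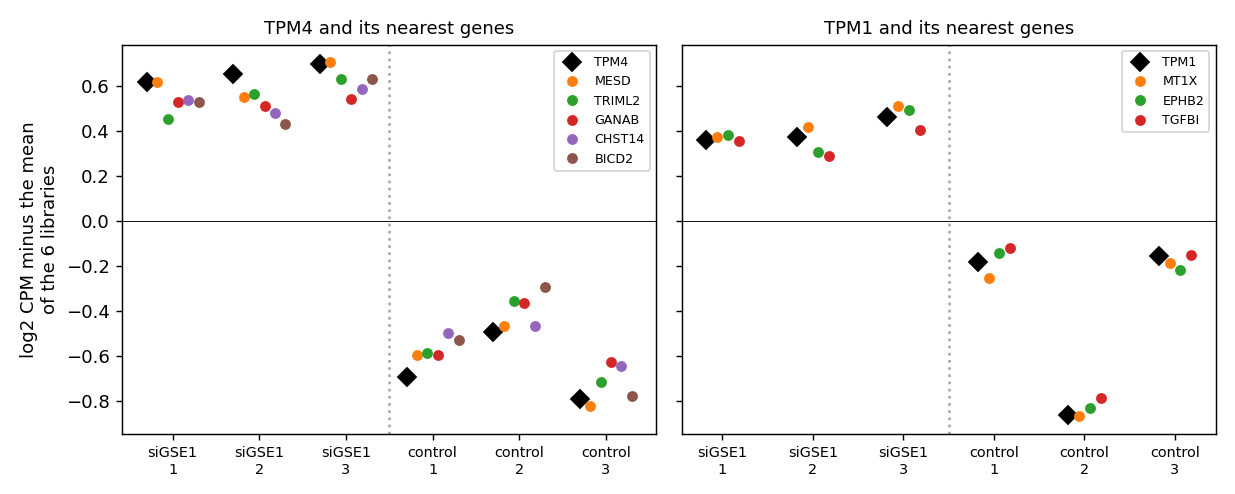
Centred log2 CPM in each library for TPM4 and its 5 nearest genes (left panel) and TPM1 and its 3 nearest genes (right panel), siGSE1 libraries left of the dotted line and control libraries right of it. Control replicate 2 is the lowest library for TPM1 and its neighbours, near -0.8, and not for TPM4, at -0.49.

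The partners of tropomyosin on the actin filament showed smaller differences than TPM4. Of 93 tested genes in 11 lists of the actin filament system, 24 rose, 10 fell and 59 did not pass. That is 36.6% called, where 19.9% of all genes were, and the median log2 fold change was 0.06. The lists were drawn up with earlier results of these data known, and other genes of like level were not compared. Nothing is therefore read from these counts. Of 3 tested actins, 2 rose, ACTB by 0.36 on the log2 scale (SE 0.05, edgeR adjusted p = 1.72e-04) to 1202 FPKM in siGSE1 cells, against 919 in control cells, and the smooth muscle actin ACTA2 by 0.61 (SE 0.14, adjusted p = 0.00472). Among the tropomodulins, which cap the pointed ends of tropomyosin-coated filaments, TMOD2 rose by 0.45 (SE 0.10, adjusted p = 0.00467), TMOD1 fell by 1.02 (SE 0.23, adjusted p = 0.00468), and TMOD3 did not pass at 18.2 FPKM in siGSE1 cells and 19.8 in control cells. Levels of the called tropomodulins were far below that of TMOD3, with TMOD1 at 0.68 FPKM in siGSE1 cells and 1.36 in control cells. For TMOD2 they were 1.71 and 1.24. TMOD2 lost its call with limma on log2(FPKM + 0.1). Non-muscle myosin II and its regulators had 3 of 13 rising, 1 falling and 9 below the threshold. The kinase ROCK2 rose by 0.28 (edgeR adjusted p = 0.00239), the phosphatase subunit PPP1CB rose by 0.22, and the heavy chain MYH14 fell by 0.32. PPP1CB lost its call in 4 of the 6 fits that left out 1 library, keeping it without siGSE1 replicate 3 or control replicate 2, and MYH14 lost it with limma and without siGSE1 replicate 2.

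Proteins that bind the sides of filaments had 4 of 8 rising and 0 falling, with drebrin (DBN1, log2 fold change 0.29), supervillin (SVIL, 0.28) and calponin 2 (CNN2, 0.23) named by the rule. Of 14 genes of cofilin and filament turnover, 4 rose, 1 fell and 9 did not pass: cofilin 2 (CFL2) fell by 0.37, and the cofilin cofactor WDR1 and the cofilin kinase LIMK1 rose by 0.28 and 0.34 (edgeR adjusted p from 4.85e-04 to 8.23e-04). The Arp2/3 list had 2 of 14 rising, CTTN by 0.24 and ARPC1A by 0.27, and 1 falling, the subunit ARPC5, by 0.86 (SE 0.07, adjusted p = 7.29e-07). Of 12 formins, which build unbranched filaments, FMNL1 rose by 0.59 and the others did not pass. Of 7 crosslinkers, FLNA rose by 0.31 while ACTN4 (-0.23) and PLS1 (-0.24) fell. Calls made up 50% of the side-binding list, 35.7% of the cofilin list and 42.9% of the crosslinkers. They made up 21.4% of the Arp2/3 list and 8.33% of the formins, where 19.9% of all genes tested were called. As above, nothing is read from the counts of any of these lists. FLNA lost its call with DESeq2, with edgeR's robust prior, with limma and without siGSE1 replicate 3, and PLS1 lost it with library totals in place of TMM, with TPM scaling and with limma. PLS1 and ARPC1A were each not called in 5 of the 6 fits that left out 1 library, PLS1 being called without control replicate 3 and ARPC1A without control replicate 2. ACTN4 lost its call with limma and without siGSE1 replicate 1 or 2, CNN2 without siGSE1 replicate 2, and SVIL with limma on log2(FPKM + 1) and without siGSE1 replicate 3.

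SRF, its MRTF coactivators and their cytoskeletal targets had 8 of 15 rising, 0 falling and 7 not passing, with a median log2 fold change of 0.23. Over all genes tested 10.9% were higher and 9.02% lower, with a median of 0.0044. This list was also drawn up with earlier results of these data known. Its risers ACTB, ACTA2, TAGLN and CNN2 were already counted in the actin and side-binding lists. Nothing is therefore read from its counts. MRTFA rose by 0.47 (SE 0.06, edgeR adjusted p = 2.92e-05), the secreted matrix protein gene CCN1 by 0.58 and ACTB as above. Splicing regulators known to act on tropomyosin exons had 2 of 8 rising and 4 falling, with RBFOX2 higher by 0.42 and QKI and PTBP3 lower at -0.53 and -0.40. These values bear on genes and not on tropomyosin splice forms, which the counts cannot show. Of the troponins, the muscle partners of tropomyosin, 2 of 8 had enough counts and 0 passed, and TNNT1, the slow skeletal troponin T, was the most abundant with 30.6 FPKM in siGSE1 cells and 28.9 in control cells. With each library left out in turn, 23 to 38 of the partner genes were called.

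**Figure D5:**
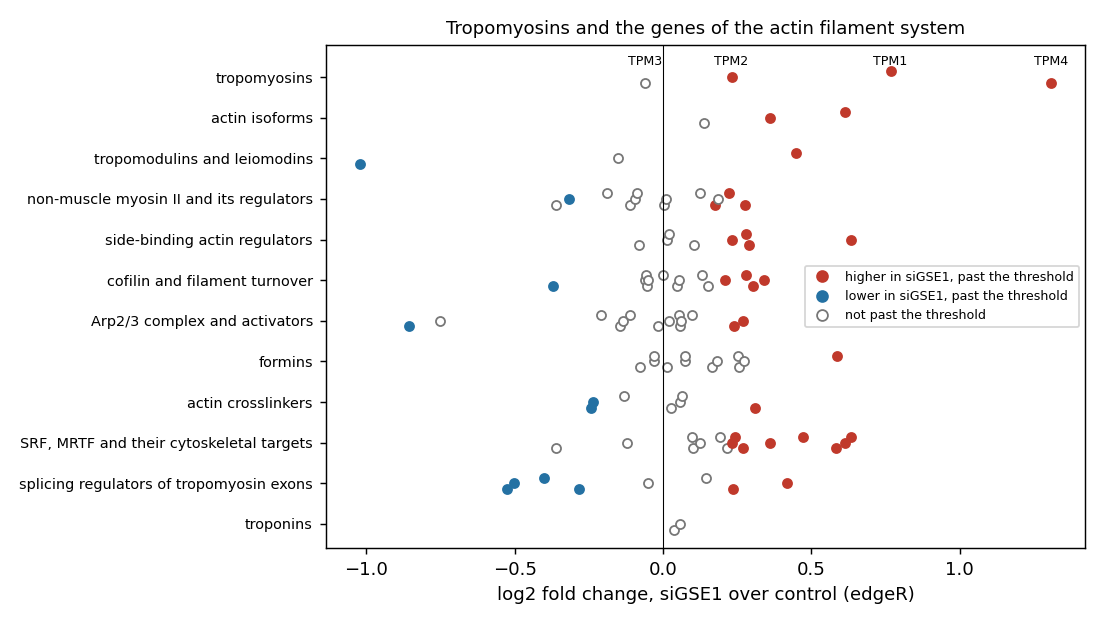
Log2 fold change, siGSE1 over control, of the tropomyosins (top row) and of the tested genes in 11 lists of the actin filament system, with 1 point per gene and some genes in more than 1 list. Red points are past the threshold and higher in siGSE1 cells, blue points past it and lower, and open points not past it, and no partner gene lies as far to the right as TPM1 or TPM4.

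Most of the listed muscle and stromal markers were near 0. Of 6 smooth muscle markers 5 were under 1 FPKM in both groups, their sum running from 1.23 to 1.54 FPKM in siGSE1 cells and from 1.22 to 1.46 in control cells, with ACTG2 at 0 counts throughout and 0 of 2 tested passing. That list leaves out the smooth muscle actin ACTA2 and TAGLN, which were in partner lists and rose. ACTA2 had 4.08 FPKM in siGSE1 cells and 2.63 in control cells. TAGLN had 1.02 FPKM in siGSE1 cells and 0.64 in control cells (edgeR adjusted p = 0.0152). Of 8 striated muscle markers 7 were under 1 FPKM, and MYH1, MYH2, MYH7 and MYOD1 were at 0 in every library. The other was NEB, nebulin, with 1.10 FPKM in siGSE1 cells and 2.15 in control cells, which fell (edgeR adjusted p = 2.4e-05). Of 7 fibroblast markers 6 were under 1 FPKM, their sum running from 2.08 to 2.28 FPKM in siGSE1 cells and from 1.3 to 1.99 in control cells, and 0 of 3 tested passed. COL1A1 made up most of that sum, with 1.42 FPKM in siGSE1 cells and 1.23 in control cells. LUM had 0.60 and 0.37 FPKM, PDGFRA had 0.11 and 0.06, and the rest had too few counts to be tested. The part of these genes in the tropomyosin values was not tested. Of 5 leukocyte markers 4, and of 5 endothelial markers 5, were under 1 FPKM in both groups.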

How the data were processed

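The authors deposited 1 table with whole-number read counts and FPKM for each of the 6 libraries. The deposited counts are not normalized. Dividing a count by exonic length and by its library's total gave the deposited FPKM to within 0.0051 for 100% of values. The submitters' processing notes list HISAT2, HTSeq, StringTie 1.3.3b and edgeR with hg38, while the series text names STAR, RPKM and DESeq2. No source used here states the annotation release. The deposited exonic lengths exceed those of single transcripts, which lowers FPKM unequally between genes.

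Counts were tested with edgeR 4.0.16 in R 4.3.3 (filterByExpr at its settings of 10 counts per library and 15 in total, TMM, quasi-likelihood test, group as the sole term, Benjamini-Hochberg adjustment over all genes tested, threshold 0.05), which was checked on simulated counts. Standard errors are the size of the log2 fold change over the root of its F statistic. Library totals ran from 14475992 to 20755506, and the biological coefficient of variation was 7.00%. DESeq2 1.42.0, limma 3.58.1 on log2(FPKM + 1) and log2(FPKM + 0.1), other scalings, no filter, a robust prior, a replicate block and leaving out each library were alternatives. The members and the gene lists were chosen with earlier results of these data known. Named genes are the members, GSE1, their pseudogene, antisense and overlapping rows, up to 3 called genes per partner list with the smallest adjusted p or else the most abundant gene, and the nearest profiles (5 for TPM4, 3 for the others). AF201337.1, AC098614.1 and the markers were named outside that rule, as were TMOD3, TAGLN and the genes nearest on the chromosome. Start windows come from RefSeq, and all 4 symbols matched.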

Additional observations from a re-analysis of the deposited data

How the results depend on the processing

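The log2 fold changes of TPM1, TPM2 and TPM4 were above 0 under every alternative run. TPM4 ran from 1.29 to 1.37 over other tests and scalings and from 1.24 to 1.40 with 1 library left out, TPM2 from 0.22 to 0.29 and from 0.18 to 0.28, and TPM1 from 0.76 to 0.83 and from 0.57 to 0.87, the lowest without control replicate 2. As a description, TPM1 was not past the threshold with edgeR's robust prior, at 0.77. TPM3 ran from -0.09 to -0.03 with 1 library left out, and was 0.0028 with TPM scaling. GSE1 ran from -1.04 to -0.85 over the alternatives and from -1.06 to -1.004 with 1 library left out. The summed tropomyosin ratio was 1.47 with TPM scaling, 1.55 by CPM and 1.49 by the longest coding transcript, a length chosen after seeing the data, and 1.42 to 1.44 with 1 library left out. The rise of the TPM4 share was 12.5 percentage points by CPM and 13.2 by that transcript length, against 10.3 by FPKM, and 9.76 to 11.1 with 1 library left out. Over all genes, 1730 were higher and 1437 lower. TPM scaling gave 2544 higher and 929 lower, a larger share of higher calls, and limma on log2(FPKM + 1) and log2(FPKM + 0.1) gave 887 and 909 lower. With 1 library left out, 1049 to 1914 were higher and 814 to 1648 lower, the fewest of both without siGSE1 replicate 3, and 897 were lower without siGSE1 replicate 2. The cause of these shifts was not tested. The partner lists had 26 to 45 called genes over the alternatives and 23 to 38 with 1 library left out. Of 364 values of the 26 named partner genes, 34 lost their call and 0 turned direction. These values include those of TNNT1, which was not called in the main fit and had no call to lose. Replicate numbers did not pair the libraries, the correlations of same-numbered libraries being 0.020, -0.019 and 0.0024, and not every library correlated best with its own number. With the replicate block 1715 genes were higher and 1382 lower, and TPM4 had 1.31, TPM1 0.80, TPM2 0.23, TPM3 -0.06 and GSE1 -1.03. Each tropomyosin had 2847 or more counts in every library, while TPM1-AS had 29 or fewer, so depth limits the overlapping rows more than the 4 genes.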

Other observations

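The nearest tested protein-coding genes on either side of the 4 tropomyosin genes were also read. Of these 8 neighbours, 0 rose, 1 fell and 7 did not pass, where 10.9% of all genes tested rose and 9.02% fell, so nothing is read from the count. The one that fell was CYP4F11, a cytochrome P450 that lies 132154 bases before TPM4, with 17.36, 15.69 and 15.45 FPKM in siGSE1 cells and 25.35, 30.60 and 27.43 in control cells (log2 fold change -0.81, SE 0.07, edgeR adjusted p = 1.40e-06). The nearest gene on the other side of TPM4, RAB8A, a GTPase of vesicle transport 8887 bases away, had 8.72 ± 0.88 FPKM in siGSE1 cells and 9.07 ± 0.13 in control cells (SD, n = 3 each) and did not pass. TLN1, the focal adhesion protein talin next to TPM2, had 48.6 ± 1.92 FPKM in siGSE1 cells and 45.7 ± 1.09 in control cells (SD, n = 3 each) and did not pass either.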
